A study of Mus musculus and Mus spretus with 18 samples.

Results

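The genes described here are St8sia2 (ENSMUSG00000025789), St8sia4 (ENSMUSG00000040710) and Ncam1 (ENSMUSG00000039542), the enzymes that build polysialic acid in the brain and its main protein carrier. All 3 were found among the 12346 Ensembl genes of the deposited expression table. St8sia2 was chosen by a measured value, one of the largest falls between birth and day 14, so its change over that step and from birth to day 56 is given as a description without a test. St8sia4 and Ncam1 were joined to it as the sister enzyme and the carrier. The symbols came with the IDs in the definition of this group of genes, since the deposited table holds IDs alone.

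Polysialic acid is a long, negatively charged chain of sialic acid units that is attached to glycans of the neural cell adhesion molecule NCAM, the product of Ncam1. St8sia2 and St8sia4 encode Golgi polysialyltransferases, each of which can make the chain on its own. The chain weakens adhesion between cell surfaces and is known for its role in cell migration, axon growth and early synapse formation. It is abundant in the developing brain, and in the adult it persists mainly in regions of ongoing neurogenesis and plasticity.

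Brains without the olfactory bulb were taken from male mice of 2 wild-derived inbred strains, SPRET/EiJ for Mus spretus and WSB/EiJ for Mus musculus, called spretus and musculus from here on. The ages were the first postnatal day (day 0, newborns), day 14 and day 56, and each of the 6 groups held 3 individuals with 1 Affymetrix array each. The labels give no treatment for any group, and each species was represented by 1 strain, so species and strain cannot be told apart. Whole-brain RNA does not tell fewer cells of a type from less RNA per cell. Values are log2 expression as deposited, with array medians between 6.52 and 6.56. The labelled tissue could not be checked against cell type markers, because no other ID was paired with a gene name. A value of 1 gene cannot be set against that of another, since each gene has its own probes.

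The stretches of genome upstream of both enzyme genes are shown because both enzyme transcripts were lower at day 14 than at day 0 in both species. They are RefSeq sequence of build GRCm38.p6, minus strand, printed 5′ to 3′, and cover the part of the promoter window outside the annotated gene. The St8sia2 stretch is chr7:74013728-74013932 and the St8sia4 stretch is chr1:95667718-95667844. Capitals mark the GC box GGGCGG, searched on both strands (CCGCCC on the other).
St8sia2: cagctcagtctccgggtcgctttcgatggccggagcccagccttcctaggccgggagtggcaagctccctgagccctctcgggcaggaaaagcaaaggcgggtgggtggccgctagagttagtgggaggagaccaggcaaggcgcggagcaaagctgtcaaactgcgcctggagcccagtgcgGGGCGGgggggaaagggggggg
St8sia4: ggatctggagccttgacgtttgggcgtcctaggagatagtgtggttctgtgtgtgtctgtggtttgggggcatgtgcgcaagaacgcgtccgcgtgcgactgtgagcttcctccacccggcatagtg

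Both promoters held more G and C than the median mouse promoter. Over the full RefSeq window of 300 bases G and C made up 68.7% in St8sia2 and 61.3% in St8sia4. The median of 32851 mouse promoters was 52.7%. Of these promoters 88.5% had a lower share than St8sia2 and 73.8% a lower share than St8sia4. The window runs from 250 bases before to 50 after a start point of its own. That point lies inside the annotated gene, since 205 bases of the St8sia2 window and 127 of the St8sia4 window lie outside it. The St8sia2 window held 2 GC boxes, of which 1 lies in the printed stretch, and the St8sia4 window held 1, outside it. At least 1 GC box was found in 35.7% of all promoters, and at least 2 in 19.5%. TATAAA, searched on both strands, was in neither window and in 13.6% of all promoters. CCAAT, also searched on both strands, was found at 2 places in the St8sia4 window and at none in the St8sia2 window. Of all promoters 37.4% held it at least at 1 place and 11.7% at 2 or more. None of the 3 motifs contains another, and a match is a description of sequence only. RefSeq's promoter table gave a window for 2 of the 3 genes, and Ncam1 was not among them.

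St8sia2, the polysialyltransferase known to prevail in the embryonic brain, was at its highest on the day of birth and far lower at both later ages. In spretus its log2 levels were 10.07, 10.44 and 10.01 in newborns, 5.98, 6.16 and 5.65 at day 14, and 5.76, 5.48 and 5.41 at day 56. In musculus they were 10.41, 10.32 and 10.41 in newborns, 6.39, 6.11 and 6.13 at day 14, and 5.76, 5.92 and 6.08 at day 56. Every newborn array lay at least 3 log2 units above every later array in both species. The later levels stayed above 4.76, the limit of the dimmest 25% of genes by their mean over all arrays. They lay below every array median (6.52 to 6.56). That limit is no detection limit, and the part of background in the later signal was not tested.

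At day 14 the St8sia2 signal stood at 5.29% of its day 0 level in spretus and at 5.55% in musculus, from the difference of the log2 means. The log2 change was -4.24 ± 0.14 in spretus and -4.17 ± 0.14 in musculus (SE, n = 3 per group). The spretus value means an 18.9-fold lower signal at day 14 than at day 0. In spretus no gene of the table had a lower value for this change, and in musculus St8sia2 was the third lowest. These are the values that St8sia2 was chosen by. By day 56 the signal stood at 4.06% of the day 0 level in spretus and 4.54% in musculus.

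**Figure D1:**
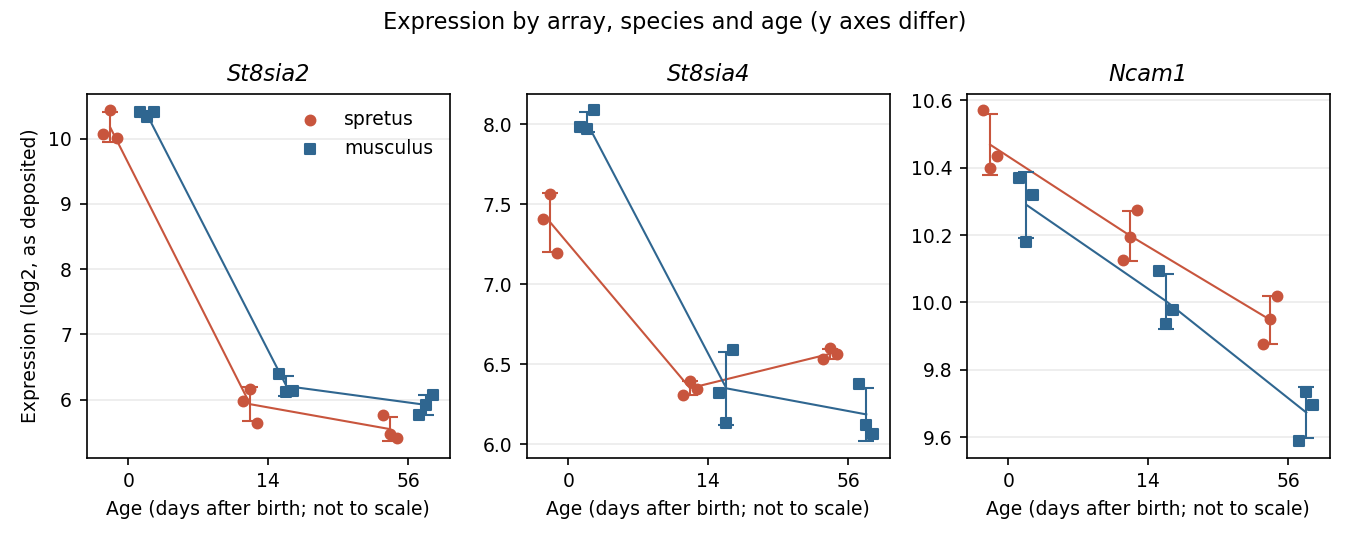
Log2 expression as deposited (y axis, a scale of its own for each gene) against age in days (x axis, not to scale) for St8sia2, St8sia4 and Ncam1. Each point is 1 array, circles are spretus and squares musculus, lines join group means and bars are 1 SD over 3 arrays. St8sia2 stood at a mean of 10.17 in spretus and 10.38 in musculus at day 0 and below 6.5 on every later array.

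**Figure D2:**
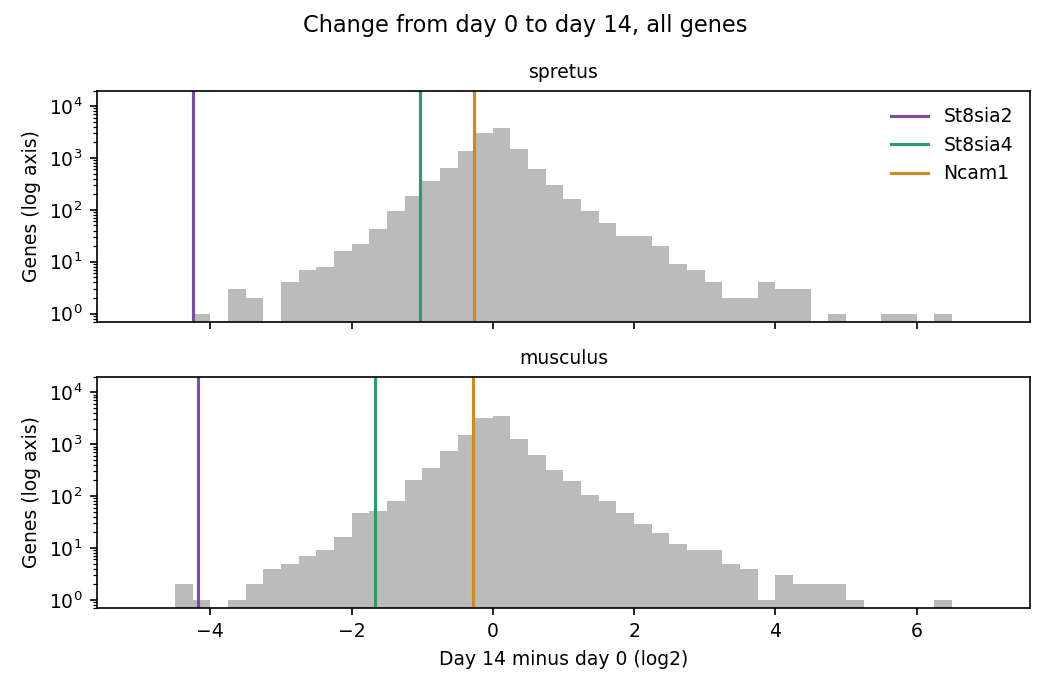
Number of genes (y axis, log scale) by log2 change from day 0 to day 14 (x axis, bins of 0.25) over 12346 genes in spretus (top) and musculus (bottom). Vertical lines mark St8sia2 at -4.24 and -4.17, St8sia4 at -1.04 and -1.66 and Ncam1 at -0.27 and -0.29 in spretus and musculus.

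Between day 14 and day 56 St8sia2 was not called, at an adjusted p under 0.05 over all genes, in either species. The log2 change was -0.38 ± 0.14 in spretus (limma, adjusted p = 0.103, 95% interval -0.68 to -0.09) and -0.29 ± 0.14 in musculus (adjusted p = 0.205, interval -0.58 to 0.01). The ranges of both ages overlapped in spretus and did not in musculus. Here and below, the share of all genes whose arrays do not overlap was not counted. A lack of overlap therefore only describes the arrays named. Without spretus day 14 replicate 3, the lowest of its group, the spretus change was -0.52 and was called (adjusted p = 0.0422). Over all 24 alternative settings the adjusted p lay between 0.0422 and 0.352 in spretus and between 0.15 and 0.465 in musculus. This step shares the day 14 arrays with the step that St8sia2 was chosen by. Of the whole distance from day 0 to day 56, 91.7% ± 5.61 had been covered at day 14 in spretus and 93.5% ± 3.50 in musculus (SD, n = 3). These shares contain the early fall that St8sia2 was chosen by, so they are a description only. Here and for St8sia4, the SD is the scatter of the 3 day 14 arrays. The means of day 0 and day 56 were held fixed, so their spread is not in it.

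St8sia4, the polysialyltransferase known to prevail in the adult brain, had a smaller early decline and differed between the species at birth. In spretus its log2 levels were 7.41, 7.56 and 7.19 in newborns, 6.31, 6.40 and 6.35 at day 14, and 6.53, 6.60 and 6.56 at day 56. In musculus they were 7.98, 7.97 and 8.09 in newborns, 6.32, 6.13 and 6.59 at day 14, and 6.38, 6.12 and 6.06 at day 56. Newborn arrays were the highest in both species, and all 3 of spretus lay below all 3 of musculus at that age. At day 56 the order was the opposite, with all 3 spretus arrays above all 3 musculus arrays.

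From day 0 to day 14 St8sia4 fell by 1.04 ± 0.11 on the log2 scale in spretus (SE; limma, adjusted p = 8.69e-07) and fell by 1.66 ± 0.11 in musculus (adjusted p = 2.26e-09). At day 14 its signal was thus 48.8% of the day 0 level in spretus and 31.6% in musculus. Both calls held in all 24 alternative settings, with log2 changes between -1.13 and -0.95 in spretus and between -1.78 and -1.55 in musculus. Here and in the other comparisons, leaving out an array of another group or refitting the same values cannot change the difference. Such settings can move only the adjusted p. In musculus 0.907% of all genes had a lower value for this change, and in spretus 2.83%.

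After day 14 St8sia4 was not called in either species. The log2 change to day 56 was 0.21 ± 0.11 in spretus (adjusted p = 0.275, 95% interval -0.03 to 0.45) and -0.16 ± 0.11 in musculus (adjusted p = 0.404, interval -0.40 to 0.08). The musculus change ranged from -0.27 to -0.04 with 1 array left out. The 3 spretus arrays at day 56 all lay above the 3 at day 14, whereas in musculus the ages overlapped. This share was computed where the whole change reached a minimum of 1 log2 unit, which St8sia4 did in musculus alone. In spretus its change to day 14 (-1.04) went beyond that to day 56 (-0.82). In musculus 91.1% ± 12.6 of the distance to day 56 had been covered at day 14 (SD, n = 3). Taken for each day 14 array, this share ran from 77.9% to 103%.

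Ncam1, the carrier of the chain and a cell adhesion molecule of the immunoglobulin superfamily, was at a log2 level of 9.59 or more on all arrays and was lower at each later age by small steps. In spretus its log2 levels were 10.57, 10.40 and 10.44 in newborns, 10.13, 10.20 and 10.27 at day 14, and 9.88, 9.95 and 10.02 at day 56. In musculus they were 10.37, 10.18 and 10.32 in newborns, 10.09, 9.94 and 9.98 at day 14, and 9.59, 9.74 and 9.70 at day 56. In both species no array of a later age reached the lowest array of the age before it.

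From day 0 to day 14 Ncam1 fell by 0.27 ± 0.08 on the log2 scale in spretus (SE; limma, adjusted p = 0.0123) and fell by 0.29 ± 0.08 in musculus (adjusted p = 0.00800). The spretus call was lost without spretus day 0 replicate 1 (change of -0.22, adjusted p = 0.0675) and without spretus day 14 replicate 1 (-0.23, adjusted p = 0.0555). From day 14 to day 56 Ncam1 fell by 0.33 ± 0.08 in musculus (adjusted p = 0.0128), and its change in spretus was -0.25 ± 0.08 (adjusted p = 0.0660). The musculus call was lost without day 14 replicate 1 (-0.28, adjusted p = 0.0559), without day 56 replicate 1 (-0.29, adjusted p = 0.0587) and with the arrays of that step fitted alone (adjusted p = 0.0719). The spretus change was called with variances that follow the level of expression (adjusted p = 0.0261) and without the dimmest 25% of genes (adjusted p = 0.0443).

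Over the whole time from day 0 to day 56 the Ncam1 fall was called in both species and in all 24 alternative settings. It fell by 0.52 ± 0.08 on the log2 scale in spretus (adjusted p = 3.84e-05) and fell by 0.62 ± 0.08 in musculus (adjusted p = 4.96e-06), to 69.8% and 65.2% of the newborn level. St8sia4 fell by 0.82 ± 0.11 in spretus (adjusted p = 1.03e-05) and fell by 1.83 ± 0.11 in musculus (adjusted p = 4.59e-10), to 56.6% and 28.2%.

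**Figure D3:**
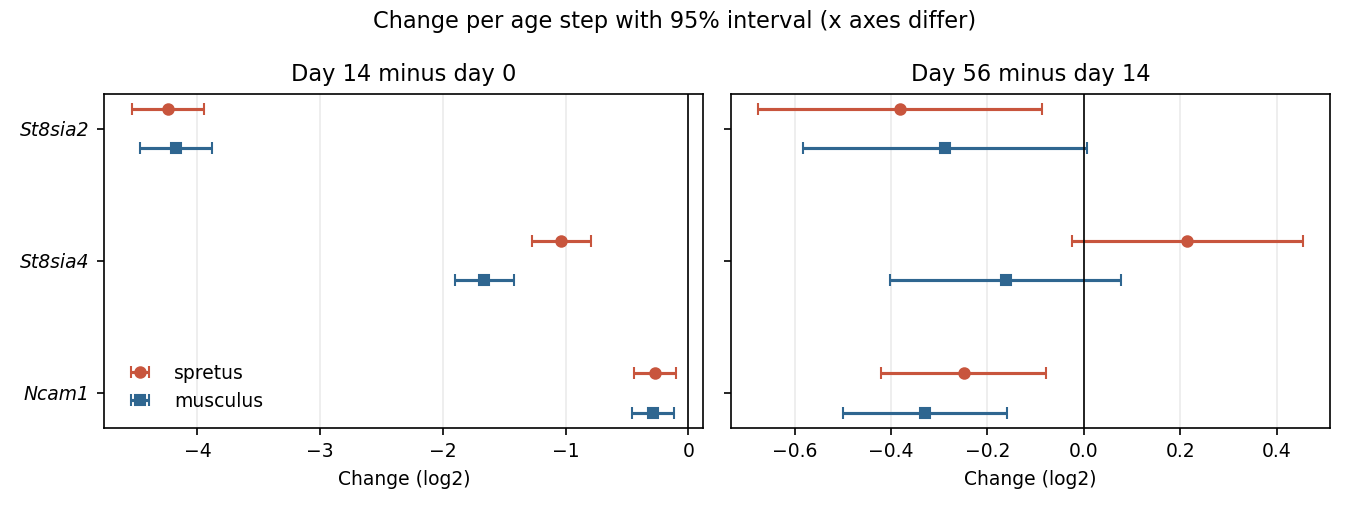
Log2 change (x axis, a scale of its own for each panel) from day 0 to day 14 (left) and from day 14 to day 56 (right) for each gene, with circles for spretus above squares for musculus. Bars are 95% intervals from the limma fit, n = 3 arrays per group. The early changes run from -4.24 for St8sia2 in spretus to -0.27 for Ncam1 in spretus, and all later changes lie between -0.4 and 0.3.

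Calls between ages were common among all genes, and the counts for these genes are read against that. For day 14 against day 0, 39.5% of genes were called in spretus and 41.4% in musculus. St8sia4 and Ncam1 were called in both species, and St8sia2 was chosen by this step. For day 56 against day 14 the shares were 8.13% in spretus and 11.9% in musculus, and of the 3 genes none was called in spretus and Ncam1 was called in musculus. For day 56 against day 0 the shares were 42.6% in spretus and 46.0% in musculus, with St8sia4 and Ncam1 called in both. The median log2 change over all genes lay between -0.01 and 0.03 in these comparisons.

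At a given age, spretus and musculus differed in St8sia4 at day 0 and day 56 and in Ncam1 at day 56. St8sia4 was lower in newborn spretus by a log2 difference of -0.63 ± 0.11 (SE; 7.39 ± 0.18 in spretus and 8.01 ± 0.06 in musculus, SD, n = 3; limma, adjusted p = 0.00117). This call held in all 24 alternative settings, with adjusted p between 0.000505 and 0.00898. At day 14 the St8sia4 difference was 0.00 ± 0.11 (adjusted p = 0.997, 95% interval -0.24 to 0.24), from means of 6.35 in both species, and it ranged from -0.11 to 0.12 with 1 array left out.

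At day 56 St8sia4 was higher in spretus by 0.38 ± 0.11 (6.57 ± 0.03 in spretus and 6.19 ± 0.17 in musculus, adjusted p = 0.0331). That call lay near the threshold. It was lost when spretus replicate 1, 2 or 3 or musculus replicate 2 or 3 was left out, with log2 differences of 0.39, 0.36, 0.38, 0.34 and 0.32 and adjusted p between 0.0641 and 0.123.

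Ncam1 was higher in spretus at day 56 by 0.28 ± 0.08 (9.95 ± 0.07 in spretus and 9.67 ± 0.08 in musculus, adjusted p = 0.0292). The call was lost without spretus replicate 2 or 3 or musculus replicate 1 or 3, with differences of 0.27, 0.24, 0.23 and 0.29 and adjusted p between 0.0564 and 0.112. It was also lost with the day 56 arrays fitted alone (adjusted p = 0.0785). At day 0 the Ncam1 difference was 0.18 ± 0.08 (adjusted p = 0.166) and at day 14 it was 0.20 ± 0.08 (adjusted p = 0.127). At every age the 3 spretus arrays lay above the 3 musculus arrays, though the difference was called at day 56 alone. How many of all genes part the species in this way was not counted.

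St8sia2 was not called between the species at any age. The log2 difference was -0.21 ± 0.14 at day 0 (adjusted p = 0.385), -0.28 ± 0.14 at day 14 (adjusted p = 0.215) and -0.37 ± 0.14 at day 56 (adjusted p = 0.0881, 95% interval -0.66 to -0.08). With 1 array left out the difference ranged from -0.34 to -0.12 at day 0 and from -0.39 to -0.14 at day 14, without a call. At day 56 it ranged from -0.48 to -0.29, also without a call. The nearest to a call was -0.48 without spretus day 56 replicate 1 (limma, adjusted p = 0.0509). The spretus mean was the lower one each time, and the arrays of the species overlapped at day 0 and day 14 and not at day 56, where the highest spretus array was at 5.761 and the lowest musculus array at 5.763.

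**Figure D4:**
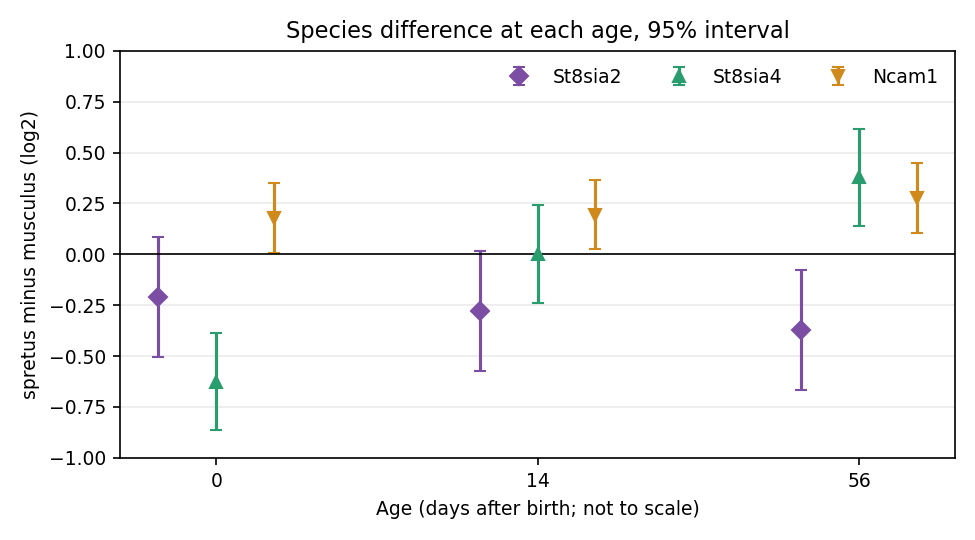
Log2 difference between spretus and musculus (y axis, spretus minus musculus) at each age in days (x axis, not to scale), with diamonds for St8sia2, upward triangles for St8sia4 and downward triangles for Ncam1. Bars are 95% intervals from the limma fit, n = 3 arrays per species and age. St8sia4 runs from -0.63 at day 0 over 0.00 at day 14 to 0.38 at day 56, whereas St8sia2 lies below 0 and Ncam1 above 0 at each age.

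Between the species 14.3% of all genes were called at day 0, 13.1% at day 14 and 14.3% at day 56, against 1, 0 and 2 of these 3 genes. The authors' list of masked probes held 9 probes of St8sia2, 7 of St8sia4 and 12 of Ncam1, where genes with any masked probe had a median of 2. Among the 1222 genes with 7 to 12 masked probes, 30.9%, 27.7% and 28.0% were called between the species at days 0, 14 and 56, and among the 3221 genes with none 5.28%, 6.27% and 6.05%, with p-values adjusted over all 12346 genes. The 3221 genes also changed less often from day 0 to day 14. In a fit of these 3221 genes alone, 831 had an unadjusted p under 0.05 (limma) in spretus and 840 in musculus. Over all 12346 genes, the 3221 included, 4877 (39.5%) and 5110 (41.4%) were called at the stricter adjusted p under 0.05. The part of probe masking in the species differences of St8sia2, St8sia4 and Ncam1 was not tested.

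The change with age differed between the species in St8sia4 over the whole time from birth to day 56. The log2 change in spretus minus that in musculus was 1.004 ± 0.16 (SE; limma, adjusted p = 0.00380, 95% interval 0.67 to 1.34), in a comparison added after the values were seen. It was called in all 24 alternative settings, with values from 0.91 to 1.10. For the step from day 0 to day 14 alone the difference in change was 0.63 ± 0.16 and not called (adjusted p = 0.0688), and for the step from day 14 to day 56 it was 0.38 ± 0.16 (adjusted p = 0.407). Without musculus day 14 replicate 3, the highest array of its group, the first of these was 0.75 and was called (adjusted p = 0.0276).

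For Ncam1 the difference in change was 0.02 ± 0.11 over the first step (adjusted p = 0.970, 95% interval -0.23 to 0.26), 0.08 ± 0.11 over the second (adjusted p = 0.829) and 0.10 ± 0.11 over both (adjusted p = 0.759, interval -0.14 to 0.34). With 1 array left out these ranged from -0.02 to 0.07, from 0.04 to 0.12 and from 0.05 to 0.15. For St8sia2 the second step differed by -0.09 ± 0.20 (adjusted p = 0.895, interval -0.51 to 0.32). The first step, given as a description, differed by -0.07 ± 0.20. With 1 array left out the second ranged from -0.23 to 0.02 and the first from -0.18 to 0.07. Over all genes 1.11% were called for a difference in the first step, 0.0405% in the second and 2.29% over both, against 0, 0 and 1 of these genes. The counts behind these shares, with 1 array left out, ranged from 63 to 204 (137 in the full fit), from 3 to 11 (5) and from 112 to 311 (283). The last share counts St8sia4, whose test was the one chosen after its values were seen.

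As both enzymes changed unequally, the log2 value of St8sia2 minus that of St8sia4 was taken within each array. The size of such a difference depends on the probes, so only its change between groups can be read. In spretus it was 2.67, 2.87 and 2.81 in newborns, -0.33, -0.24 and -0.69 at day 14 and -0.77, -1.12 and -1.16 at day 56. In musculus it was 2.42, 2.35 and 2.32 in newborns, 0.06, -0.02 and -0.47 at day 14 and -0.62, -0.20 and 0.01 at day 56. Newborn arrays stood far above all later ones, by the change that St8sia2 was chosen by.

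Between the species this difference was larger in spretus at day 0, at 2.79 ± 0.11 against 2.37 ± 0.05 in musculus (SD, n = 3), and the arrays did not overlap. At day 56 it was lower in spretus, at -1.02 ± 0.21 against -0.27 ± 0.32 in musculus, again without overlap. At day 14 it was -0.42 ± 0.24 in spretus and -0.14 ± 0.28 in musculus, with overlap, and the difference of the means ranged from -0.44 to -0.14 with 1 array left out. A two-sided exact permutation test gave p = 0.1 at day 0, 0.3 at day 14 and 0.1 at day 56, adjusted over these 3 tests to 0.15, 0.3 and 0.15. The smallest p that this test can give with 3 against 3 arrays is 0.1, so it could make no call, and these p-values say nothing for or against a species difference.

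**Figure D5:**
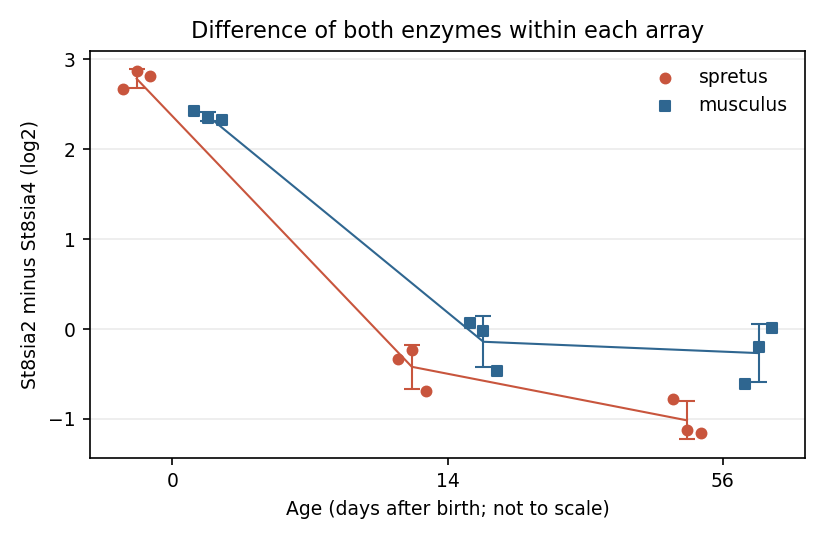
Log2 value of St8sia2 minus that of St8sia4 within each array (y axis) against age in days (x axis, not to scale). Circles are spretus and squares musculus, 1 per array, lines join group means and bars are 1 SD over 3 arrays. The means are 2.79, -0.42 and -1.02 in spretus and 2.37, -0.14 and -0.27 in musculus at days 0, 14 and 56.

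The order of the 6 group means differed from gene to gene. For St8sia2 it ran from musculus day 0 over spretus day 0, musculus day 14, spretus day 14 and musculus day 56 to spretus day 56. A gap of 3.96 log2 units parted the newborn groups from the rest, and of the other neighbours only musculus and spretus at day 56 did not overlap. For St8sia4 the order was musculus day 0, spretus day 0, spretus day 56, spretus day 14, musculus day 14 and musculus day 56, where neighbours from spretus day 14 on overlapped. For Ncam1 each age of spretus stood above the same age of musculus. Musculus at day 0 overlapped spretus at day 14, and musculus at day 14 overlapped spretus at day 56.

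The spread between replicates was smallest in Ncam1. Its SD pooled over the 6 groups was 0.083 on the log2 scale, below that of all but 10.7% of genes. The pooled SD was 0.143 for St8sia4 and 0.186 for St8sia2, and the median gene had 0.141.

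Many other genes had a course like that of St8sia2 over the 18 arrays. Pearson's r to it was over 0.9 for 830 genes, against 398 for St8sia4 and 65 for Ncam1. The closest was ENSMUSG00000020358 (r = 0.991), whose log2 level changed by -1.43 in spretus and by -1.37 in musculus from day 0 to day 14. The closest to St8sia4 was ENSMUSG00000038872 (r = 0.977), with log2 means of 7.31, 6.45 and 6.47 in spretus and 7.92, 6.31 and 6.29 in musculus at days 0, 14 and 56, and 23 masked probes. By its means it was, like St8sia4, lower in spretus at day 0 and higher at day 56. It was picked for its likeness to St8sia4 over the same arrays, so this is no separate support. At day 14 its mean was also higher in spretus, where the means of St8sia4 were 6.35 in both species. The closest gene to Ncam1 had r = 0.965. The arrays fall into ages, which all these values share, so r describes likeness of the course and carries no test.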

How the data were processed

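Male brains of 2 species at 3 ages were profiled on Affymetrix mouse arrays, per the labels' protocols, with 18 arrays of separate individuals. The authors deposited 1 log2 value per Ensembl gene and array. The log2 scale and the normalization between arrays were read from the values (2.89 to 13.82), while how they were background-corrected, summarised and normalized is not given in the sources used here. Another deposited column pair gives the array position of 46864 probes that the authors masked, for a reason not stated.

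Groups were taken from sample titles. A linear model with 1 mean per group was fitted to all 12346 genes and 18 arrays with limma 3.58.1 in R 4.3.3 (lmFit, contrasts.fit, eBayes, 12 residual degrees of freedom, 17.1 after moderation). Tests were two-sided, p-values were adjusted by Benjamini and Hochberg over all genes of a comparison, and calls were made below an adjusted p of 0.05. The procedure was tested on simulated data. Within-array differences were compared by an exact permutation test in SciPy 1.17.1. The number of arrays limits the precision.

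The members and lists were chosen with earlier results of these data known. The rule for naming genes took the 3 members and, for each, the genes with the highest Pearson r to it. It was shortened to 2 IDs, since none of 49997 RefSeq genes in the reference table carried an Ensembl ID. For the same reason 0 of the 109 genes of the 17 pathway and marker lists could be matched, and no list result is given. Alternatives were quantile normalization, arrays centred on their medians, the arrays of a comparison alone, the replicate number as a block, trended and robust variances, no dim genes, only genes without a masked probe, and each array left out in turn.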

Additional observations from a re-analysis of the deposited data

Results flagged for a closer look

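St8sia4 was singled out because its change with age differed between the species by a test of the difference itself. From day 0 to day 56 its log2 change in spretus minus that in musculus was 1.004 ± 0.16 (SE; limma, adjusted p = 0.00380), from a change of -0.82 in spretus and -1.83 in musculus. All 3 spretus arrays were below all 3 musculus arrays at day 0 and above them at day 56. How many of all genes part the species in this way was not counted. The comparison was added after the values were seen, so this call is no independent support. Over all genes 2.29% were called in it. The planned tests of each single step were not called for St8sia4. Their adjusted p (limma) was 0.0688 from day 0 to day 14 and 0.407 from day 14 to day 56. The authors had masked 7 probes of the gene, and their part in the result was not tested. With each array left out in turn the value ranged from 0.91 to 1.10 and was called every time.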

How the results depend on the processing

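For the 3 genes 924 values were recomputed, from 39 results under up to 24 settings. The results include the shares of the change reached at day 14. Of the 924 values 896 kept their direction and side of the threshold, 15 lost a call, 4 gained one and 9 changed sign. Results without a test, which are those shares and some St8sia2 differences, counted as kept if they moved by less than 1 SD. Among those kept in this way 3 St8sia2 differences changed sign, apart from the 9. The 9 were not called in the full fit or after the change. They were St8sia4 between the species at day 14 after quantile normalization (-0.010) and without 1 array (-0.012, -0.11 and -0.022, within a range of -0.11 to 0.12), the Ncam1 difference in the first step without 1 array (4 times, range -0.024 to 0.071) and the St8sia2 difference in the second step without 1 array (once, range -0.23 to 0.023). In many of these settings the value itself could not change, since the array left out belonged to another group or the same values were refitted. Such settings could move only the adjusted p. The cause of each loss or gain was not tested. With 1 array left out, St8sia2 from day 14 to day 56 in spretus ranged from -0.52 to -0.27, St8sia4 between the species at day 56 from 0.32 to 0.47 and its difference in change over the first step from 0.52 to 0.75. Ncam1 ranged from -0.36 to -0.28 from day 14 to day 56 in musculus, from -0.31 to -0.22 from day 0 to day 14 in spretus and from 0.23 to 0.31 between the species at day 56. Ncam1 kept its values of -0.33 in musculus and 0.28 between the species at day 56, without a call, with the arrays of the comparison alone. In spretus it kept -0.25 from day 14 to day 56, with a call, with trended and robust variances or without the dimmest 25% of genes.

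Counts over all genes moved more. With the arrays of the comparison alone 645 genes were called in spretus and 746 in musculus from day 14 to day 56 (1004 and 1469 in the full fit), 993 between the species at day 14 (1622), and 62 and 1 for a difference in the first and second step (137 and 5). Among the 3221 genes without a masked probe, a smaller set that holds none of the 3 genes, with p-values adjusted over these genes alone, the counts were 511 and 529 for the first step in spretus and musculus, 60 and 94 for the second and 569 and 673 for both. Between the species they were 49, 58 and 80 at days 0, 14 and 56, and for a difference in change 3 over the first step, 0 over the second (limma; 290 at an unadjusted p under 0.05) and 3 over both. The count of 5 was 8 after quantile normalization and 12 with trended and robust variances. With 1 array left out, 535 to 1052 genes were called in spretus from day 14 to day 56, and the count fell by over 1.5 times without replicate 2 or 3 of spretus day 14 or day 56. Between the species at day 14 there were 1052 to 1649, where spretus day 14 replicate 2 alone had that effect. For a difference in change there were 63 to 204 over the first step (musculus day 14 replicate 3, each spretus day 0 array and spretus day 14 replicates 1 and 2), 3 to 11 over the second and 112 to 311 over both (musculus day 0 replicate 3 and day 56 replicates 1 and 2, spretus day 0 and day 56 replicates 2 and 3).

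Same-numbered replicates of different groups did not deviate together (r of -0.16 to 0.15 over 45 pairs, with 4 over 0.1), and 8 of 18 arrays were closest to their own number, so the numbers were not taken to pair the arrays. With the replicate number as a block, 4847 and 5087 genes were called for the first step in spretus and musculus, and no call of the 3 genes changed.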
